A study of Sus scrofa with 4 samples.

Results

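In longissimus dorsi, a long back muscle of the pig, the miR-374 family was represented by 4 of the 271 known miRNAs in the deposited table. These are the rows whose name, once the arm suffix is removed, reads miR-374a or miR-374b, and each precursor has a 5p and a 3p row. The miR-374a rows were chosen by their read counts in these libraries, because the 5p to 3p ratio turned round between them, so that ratio is given here as a description, with no test. The comparison of the types comes from a fit over the whole table and is no independent check of rows chosen this way. The samples were 4 small RNA libraries, 1 per breed, made from total RNA of muscle that had been frozen on dry ice. The indigenous Chinese breeds were Diannan Small Ear and Tibetan, and the introduced breeds were Landrace and Yorkshire, so that each type had 2 libraries. No treatment or genetic change is named for any animal. Age, sex, batch and whether a library came from a single pig or a pool were not given in the sources used here, and the spread between libraries may be partly technical.

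A miRNA precursor is a short hairpin, and Dicer cuts from it a duplex whose strands are named 5p and 3p after the side of the hairpin they come from. Usually a single strand is retained in Argonaute as the guide and the other is degraded, so the 5p to 3p ratio of the mature products reflects which strand accumulates. In human the precursors of miR-374a and miR-374b lie on the X chromosome within FTX, a long non-coding RNA gene of the X inactivation centre. There miR-545 neighbours miR-374a and miR-421 neighbours miR-374b, and the 5p products of miR-374a and miR-374b share a seed, the stretch near the 5′ end that pairs with target transcripts. In the RefSeq annotation of the pig assembly Sscrofa11.1 MIR421, MIR374B, MIR545 and MIR374A likewise follow one another on chromosome X.

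Reads counted to listed miRNAs totalled between 2507082 (Landrace) and 5346460 (Yorkshire). Of the 4 pairs of libraries compared, those that cross the types were the more alike after TMM scaling. Of the tested miRNAs with reads in both libraries, 8.67% changed by 2-fold or more in Diannan Small Ear over Landrace and 24.5% in Tibetan over Yorkshire. In Diannan Small Ear over Tibetan 63.9% did so, and in Landrace over Yorkshire 66.7%. On total-count CPM these shares were 32.7% and 80.7% across the types and 70.1% and 80.7% within them, so the shares depend on the scaling. In Tibetan over Yorkshire 79.7% were then higher by 2-fold or more. The log2 ratio between the strands of a precursor needs no scaling between libraries. Over 41 precursors its median absolute difference was 0.466 (Diannan Small Ear minus Landrace) and 0.469 (Tibetan minus Yorkshire). Within the types it was 2.18 (Diannan Small Ear minus Tibetan) and 1.98 (Landrace minus Yorkshire). By this ratio too, the pairs across the types were the more alike. The groups follow the labels as given, and whether labels were exchanged between the types was not tested. All 6 striated muscle marker miRNAs on the list used to check the tissue were present. Their summed share of reads was 5.83% in Diannan Small Ear and 89.9% in Tibetan, and 7.36% in Landrace and 96.7% in Yorkshire. This composition weighs on scaling: levels are therefore given as reads and as CPM, counts relative to library size, after TMM scaling (trimmed mean of M-values, which sets aside the most divergent miRNAs). Total-count CPM is given beside the comparisons that it alters.

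miR-374a-5p was abundant in a single library of each type and scarce in the other. It had 196 reads in Diannan Small Ear and 16135 in Tibetan, against 188 in Landrace and 6679 in Yorkshire. After TMM scaling these were 32.7 and 4561 CPM in the indigenous libraries, against 33.9 and 3626 CPM in the introduced libraries. The order of levels was Tibetan, Yorkshire, Landrace and Diannan Small Ear, and the 95% Poisson intervals of the lowest pair overlapped (28.3 to 37.6 CPM in Diannan Small Ear and 29.2 to 39.1 CPM in Landrace). On total-count CPM they did not, with 43.5 CPM in Diannan Small Ear (37.7 to 50.1) and 75.0 CPM in Landrace (64.7 to 86.5). By read count miR-374a-5p ranked 10 of 271 in Tibetan and 11 in Yorkshire, but 90 in Diannan Small Ear and 91 in Landrace. The summed share of the striated muscle markers was high in the same 2 libraries, and its part in this difference was not tested. The listed markers did not all move together. miR-133a-3p had 243554 reads in Diannan Small Ear and 103226 in Tibetan, against 167451 in Landrace and 59941 in Yorkshire. By contrast miR-206, miR-133a-5p and both arms of miR-499 had more reads in Tibetan and Yorkshire. In Diannan Small Ear and Landrace most of the summed marker reads were miR-133a-3p. In Tibetan and Yorkshire most came from the listed markers not named above, miR-1, miR-133b and miR-208b, whose separate reads are not given here. In whole tissue, fewer cells of a type and less RNA per cell cannot be told apart.

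The other strand, miR-374a-3p, stayed within a narrow range. It had 375 reads in Diannan Small Ear and 324 in Tibetan, against 497 in Landrace and 300 in Yorkshire. The TMM-scaled levels were 62.5 and 91.6 CPM in the indigenous libraries, against 89.6 and 163 CPM in the introduced libraries, so the types overlapped. From the lowest to the highest library miR-374a-3p spanned 2.60-fold, where miR-374a-5p spanned 140-fold. On total-count CPM the spans were 3.53-fold and 103-fold, and the order of the miR-374a-3p levels changed, with Landrace highest (198 CPM) and Yorkshire lowest (56.1 CPM).

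**Figure D1:**
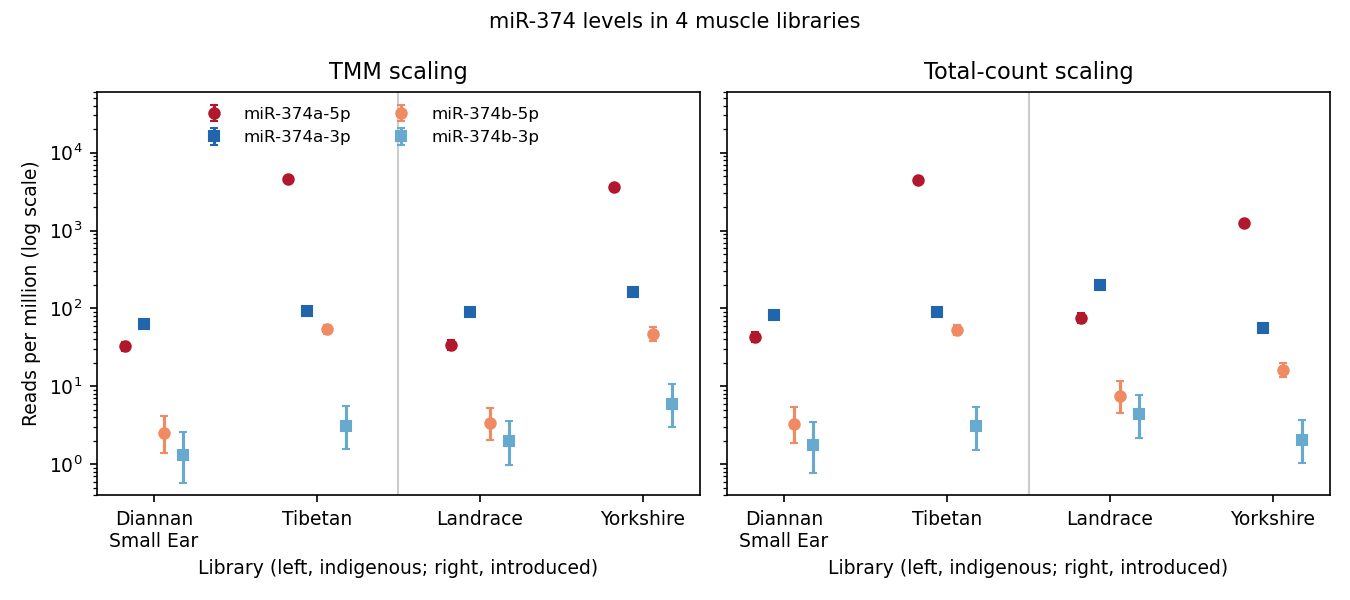
Levels of the 4 miR-374 miRNAs in each library, in CPM on a log axis, after TMM scaling (left) and as total-count CPM (right). Points are single libraries and bars are 95% Poisson intervals, which cover counting error only. miR-374a-5p sits at 32.7 and 33.9 TMM-scaled CPM in Diannan Small Ear and Landrace and at 4561 and 3626 CPM in Tibetan and Yorkshire, while miR-374a-3p stays between 62.5 and 163 CPM.

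The more abundant strand of miR-374a differed between libraries. The ratio of 5p to 3p reads was 0.523 in Diannan Small Ear (95% exact binomial interval 0.437 to 0.623) and 49.8 in Tibetan (44.6 to 55.8). In the introduced breeds it was 0.378 in Landrace (0.318 to 0.448) and 22.3 in Yorkshire (19.8 to 25.1). The 5p strand thus made up 34.3% of miR-374a reads in Diannan Small Ear and 98.0% in Tibetan, against 27.4% in Landrace and 95.7% in Yorkshire. None of the 4 intervals of the ratio included 1. A ratio within a library needs no scaling between libraries, so the reversal does not depend on the normalisation, although the read counts of different sequences also carry their own capture efficiency and an absolute ratio of 1 is not a calibrated point.

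Between breeds of a type the miR-374a ratio in Diannan Small Ear was 95.3-fold lower than in Tibetan (95% interval of the conditional odds ratio 77.2 to 118) and 58.9-fold lower in Landrace than in Yorkshire (47.8 to 72.6). Across the types the shifts were smaller. The ratio in Diannan Small Ear was 1.38-fold higher than in Landrace (1.08 to 1.77) and 2.24-fold higher in Tibetan than in Yorkshire (1.90 to 2.63). These intervals cover counting error only, because no molecular identifiers are described, so that reads cannot be taken as independent molecules, and each breed had 1 library.

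miR-374b moved in the same order, but its 5p strand had more reads than its 3p strand throughout. miR-374b-5p, whose human form shares its seed with miR-374a-5p, had 15 reads in Diannan Small Ear and 191 in Tibetan, against 19 in Landrace and 87 in Yorkshire. After TMM scaling it measured 2.50 and 54.0 CPM in the indigenous libraries, against 3.43 and 47.2 CPM in the introduced libraries. As with miR-374a-5p, Tibetan and Yorkshire were high, Diannan Small Ear and Landrace were low, and the types overlapped.

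miR-374b-3p was near the limit of detection in every library. It had 8 reads in Diannan Small Ear and 11 in Tibetan, against 11 in Landrace and 11 in Yorkshire. TMM scaling placed it at 1.33 and 3.11 CPM in the indigenous libraries, against 1.98 and 5.97 CPM in the introduced libraries. A count of 0 would have allowed up to 3 reads, or 0.561 to 1.20 CPM over the 4 libraries.

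The miR-374b ratio of 5p to 3p reads was 1.88 in Diannan Small Ear (0.746 to 5.11) and 17.4 in Tibetan (9.49 to 35.4), against 1.73 in Landrace (0.781 to 4.02) and 7.91 in Yorkshire (4.21 to 16.4). In Diannan Small Ear and Landrace the interval included 1, so the depth does not show which strand led there. The ranking of the 4 ratios, from Tibetan through Yorkshire and Diannan Small Ear to Landrace, was the one seen for miR-374a, although the intervals of Diannan Small Ear and Landrace overlapped, as did those of Tibetan and Yorkshire. The ratio in Diannan Small Ear was 9.26-fold lower than in Tibetan (2.74 to 29.5) and 4.58-fold lower in Landrace than in Yorkshire (1.53 to 13.5). Both intervals lay below those of miR-374a in the same comparisons.

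**Figure D2:**
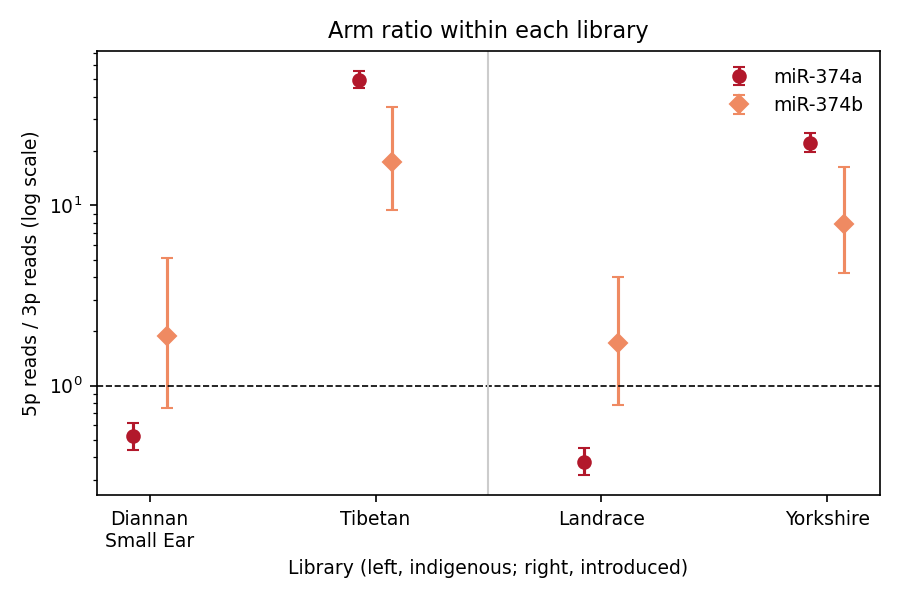
Ratio of 5p to 3p reads of miR-374a and miR-374b in each library, on a log axis. Points are single libraries, bars are 95% exact binomial intervals for counting error and the dashed line marks equal reads. miR-374a lies below the line in Diannan Small Ear (0.523) and Landrace (0.378) and above it in Tibetan (49.8) and Yorkshire (22.3), whereas the miR-374b points lie above it throughout, with intervals that reach the line in Diannan Small Ear and Landrace.

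The balance between the paralogs also differed by strand. For the 5p products, miR-374b made up 7.11% of the reads of both in Diannan Small Ear (exact binomial interval 4.03 to 11.5) and 1.17% in Tibetan (1.01 to 1.35), against 9.18% in Landrace (5.62 to 14.0) and 1.29% in Yorkshire (1.03 to 1.58). The miR-374b part was therefore smaller in the libraries where miR-374a-5p was abundant. That share is a description, because miR-374a-5p, chosen by its counts here, makes up most of the reads it is divided by. For the 3p products the share was 2.09% in Diannan Small Ear (0.906 to 4.07) and 3.28% in Tibetan (1.65 to 5.80), against 2.17% in Landrace (1.09 to 3.84) and 3.54% in Yorkshire (1.78 to 6.24), with overlapping intervals. How reads that match both 5p sequences were assigned was not given in the sources used here, and the separate 5p values of the paralogs are uncertain to that extent. With the reads of miR-374a and miR-374b summed per strand, the 5p to 3p ratio was 0.551 in Diannan Small Ear and 48.7 in Tibetan, against 0.407 in Landrace and 21.8 in Yorkshire.

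Between the types, the series asks whether muscle of indigenous and introduced breeds differs in miRNAs tied to growth and lipid deposition. None of the 4 miR-374 miRNAs passed the threshold (edgeR's quasi-likelihood test, two-sided, adjusted p of 0.05), and 0 of all 197 tested miRNAs did (0%), with 1 at an unadjusted p under 0.05. All 4 had passed the low-count filter. The common biological coefficient of variation of the fit was 98.65%, with 2 residual degrees of freedom, so 0 calls do not show that the types are alike. DESeq2 also called 0, with 1 at an unadjusted p under 0.05.

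miR-374a-5p averaged 2297 ± 3202 TMM-scaled CPM in the indigenous and 1830 ± 2540 CPM in the introduced libraries (SD, n = 2 each). The log2 fold change was 0.33 ± 2.66 (SE, edgeR adjusted p = 0.996). The spread within each type was larger than either mean. miR-374a-3p averaged 77.1 ± 20.5 CPM in the indigenous and 126 ± 51.8 CPM in the introduced libraries (SD, n = 2 each), with an estimate of -0.71 ± 0.90 (SE, edgeR adjusted p = 0.996). The estimates for miR-374b-5p and miR-374b-3p were 0.16 ± 1.91 and -0.81 ± 0.93 (SE), again at an edgeR adjusted p of 0.996. The miR-374a-5p estimate was -5.80 without the Tibetan library and 5.95 without the Yorkshire library, and it was 1.21 without Diannan Small Ear and -0.52 without Landrace. With total-count scaling it was 1.78 ± 2.29 (SE, edgeR adjusted p = 0.995).

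In the authors' deposited table miR-374a-5p stood at a mean of 2267 CPM for the indigenous and 662 CPM for the introduced breeds, a fold of 3.42 with a p-value of 2.92e-204. The authors' deposited table has 83 of 271 miRNAs at an FDR of at most 0.05, and only 5 of the 271 had a smaller p-value than miR-374a-5p. In the authors' deposited table the folds were 0.682 for miR-374a-3p (FDR 0.0228), 2.37 for miR-374b-5p (FDR 0.0279) and 0.751 for miR-374b-3p (FDR 1). The authors' fold for miR-374a-5p rests on total-count CPM. The total-count estimate above, a log2 fold change of 1.78, is the same fold on a log2 scale, and the TMM estimate is smaller. The test behind those values was not given in the sources used here. In the libraries themselves miR-374a-5p differed 103-fold on total-count CPM between the highest and the lowest, and those extremes, Tibetan and Diannan Small Ear, belong to the same type.

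Set against all miRNAs, the 5p strands lay at the edge of the breed differences and the 3p strands nearer the middle. Between Diannan Small Ear and Tibetan, 36.6% of 194 miRNAs with reads in both were at least 2-fold lower in Diannan Small Ear, as were 3 of the 4 miR-374 miRNAs. In Diannan Small Ear miR-374a-5p was 140-fold lower (95% counting interval 121 to 161), a change ranked 2 of 194 by size, and miR-374b-5p was 21.6-fold lower (12.8 to 39.3). miR-374b-3p was 2.33-fold lower with an interval that includes no difference (0.854 to 6.67), and miR-374a-3p was 1.46-fold lower (1.26 to 1.70), where the median log2 ratio of all miRNAs was -0.188. With total counts miR-374b-3p was 1.72-fold lower, which leaves 2 of the 4 miR-374 miRNAs at least 2-fold lower, against 32.5% of all.

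Between Landrace and Yorkshire, 34.4% of 192 miRNAs were at least 2-fold lower in Landrace, as were 3 of the 4 miR-374 miRNAs. miR-374a-5p was 107-fold lower in Landrace (92.5 to 124), and miR-374b-5p was 13.8-fold lower (8.32 to 24.0). miR-374b-3p was 3.01-fold lower (1.18 to 7.66) and miR-374a-3p 1.82-fold lower (1.57 to 2.10). Total-count scaling shifted the median log2 ratio of all miRNAs from -0.213 to 2.47 in this comparison. miR-374a-5p was then 16.7-fold and miR-374b-5p 2.15-fold lower in Landrace, while miR-374a-3p was 3.53-fold and miR-374b-3p 2.13-fold higher, as 73.4% of all miRNAs were by at least 2-fold, so the direction of the 3p strands depends on the scaling and that of the 5p strands does not.

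Across the types the miR-374 miRNAs differed less. In Diannan Small Ear over Landrace, 8.67% of 196 miRNAs reached a 2-fold difference, and 0 of the 4 miR-374 miRNAs did. miR-374a-5p was 0.964 of its Landrace level in Diannan Small Ear (0.786 to 1.18). Between Tibetan and Yorkshire, 24.5% of 192 miRNAs differed at least 2-fold, and again 0 of the 4 did. With RLE scaling 1 of the 4, miR-374b-3p, was at least 2-fold lower in Tibetan (2.11-fold, 0.828 to 5.36), as were 13% of all. miR-374a-5p was 1.26-fold higher in Tibetan than in Yorkshire (1.22 to 1.29) and miR-374a-3p was 1.78-fold lower (1.51 to 2.09), but with total counts miR-374a-3p was 1.61-fold higher (1.37 to 1.89) and miR-374b-3p 1.49-fold higher (0.585 to 3.79). On that scale miR-374a-5p was 3.60-fold and miR-374b-5p 3.27-fold higher in Tibetan, a direction in which 79.7% of all miRNAs passed 2-fold. Also with total counts, 3 of the 4 were at least 2-fold lower in Diannan Small Ear, set against Landrace, as were 30.6% of all. In Diannan Small Ear miR-374a-3p was then 2.38-fold lower than in Landrace (2.08 to 2.73) and 1.08-fold lower than in Tibetan (0.930 to 1.26).

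**Figure D3:**
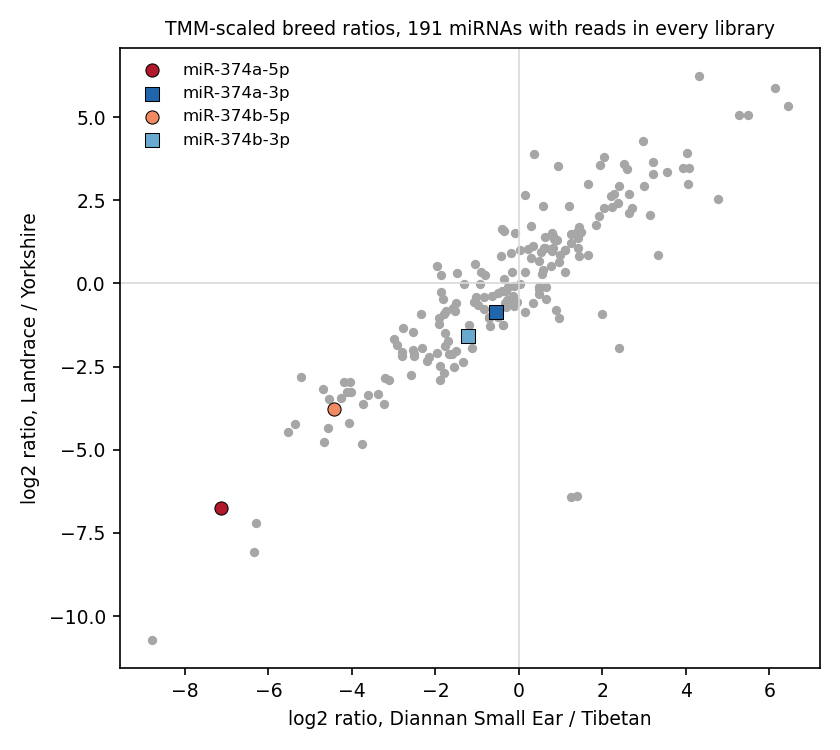
Log2 ratio of TMM-scaled counts between breeds of the indigenous type (horizontal, Diannan Small Ear over Tibetan) and of the introduced type (vertical, Landrace over Yorkshire) for 191 tested miRNAs with reads in every library. Each grey point is a miRNA and the coloured points are the miR-374 miRNAs. miR-374a-5p lies at the lower left (-7.12 and -6.74), miR-374b-5p next (-4.43 and -3.79), and the 3p strands nearer the centre.

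Arm ratios of other precursors give the background for the reversal. Both arms were listed for 54 precursors, and 41 of these had at least 20 reads over both arms in every library, miR-374b among them with 23 at the lowest. The more abundant arm differed between libraries in 4 of the 41, namely miR-374a, miR-28, miR-664 and miR-423. By the range of log2(5p/3p) over the 4 libraries, with 0.5 added to each arm, miR-374a came first of the 41 with 7.04, closely followed by miR-10a with 6.95. miR-10a kept its 5p arm ahead in every library, so its wide range came without a reversal. miR-374b ranked 17 of the 41, and the median range was 3.06. Since miR-374a was chosen for its ratio, its rank is a description.

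miR-28, encoded in an intron of the LPP gene in human, was the only precursor of the other 3 to reverse as miR-374a did. Its 5p to 3p ratio was 0.186 in Diannan Small Ear and 3.96 in Tibetan, against 0.225 in Landrace and 5.35 in Yorkshire. miR-664 and miR-423 moved the other way, toward 3p in Tibetan and Yorkshire. The miR-664 ratio was 1.65 in Diannan Small Ear and 0.296 in Tibetan, against 0.513 in Landrace and 0.15 in Yorkshire, and that of miR-423 was 1.26 and 0.5 in the indigenous and 1.13 and 0.571 in the introduced libraries.

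A shift of arm ratio between these libraries was common and went in either direction. In 21 of the 41 precursors, miR-374a and miR-374b included, the 5p to 3p ratio was lower in Diannan Small Ear than in Tibetan and also lower in Landrace than in Yorkshire. In 15 it was higher in both comparisons and in 5 the signs were opposite. The median absolute difference in log2(5p/3p) was 2.18 between the indigenous libraries (Diannan Small Ear minus Tibetan) and 1.98 between the introduced ones (Landrace minus Yorkshire). Across the types it was 0.466 for Diannan Small Ear minus Landrace, and 0.469 for Tibetan minus Yorkshire. The values for miR-374a in the same order were -6.57, -5.87, 0.466 and 1.16.

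**Figure D4:**
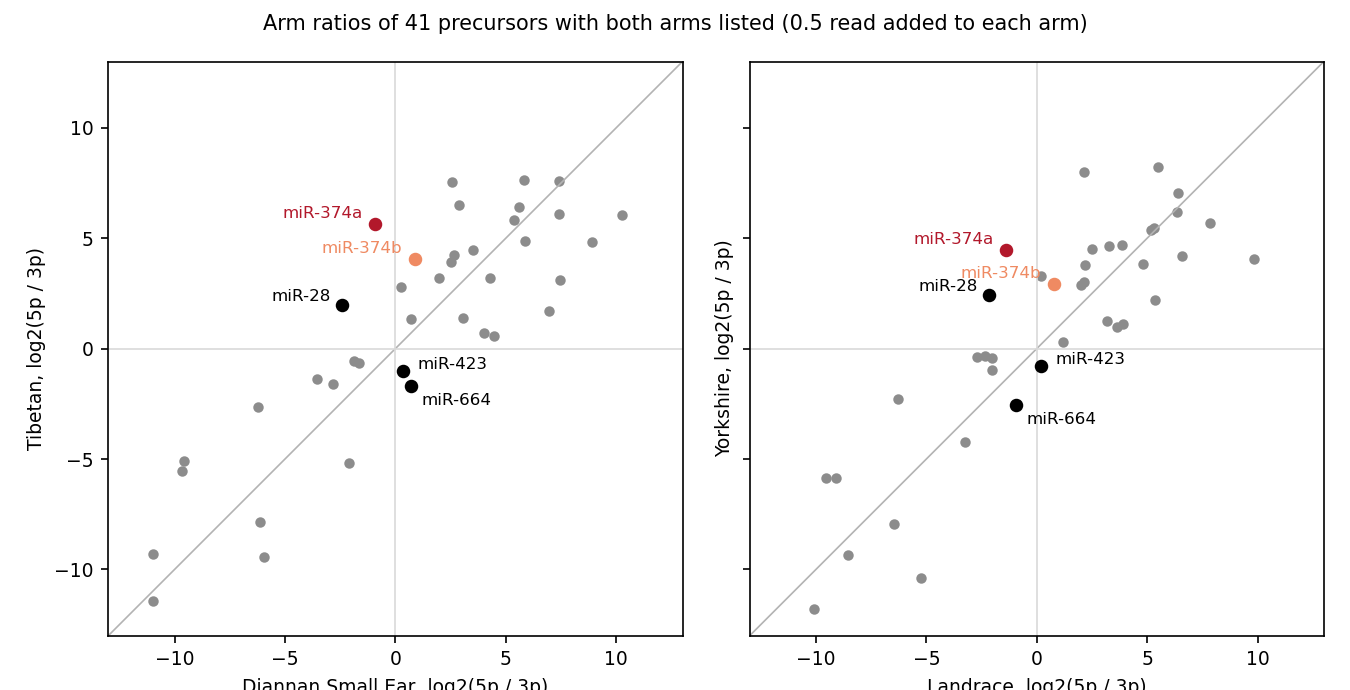
Log2 of 5p over 3p reads, 0.5 added to each, for 41 precursors in Diannan Small Ear (horizontal) against Tibetan (vertical) on the left, and in Landrace (horizontal) against Yorkshire (vertical) on the right. Each point is a precursor and the diagonal marks equal ratios. Coloured points are miR-374a and miR-374b, and black points are the other 3 precursors whose more abundant arm differed between libraries. miR-374a lies in the upper left quadrant of both panels, at -0.93 and 5.64 on the left and -1.40 and 4.47 on the right.

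The neighbours of the miR-374 precursors did not follow the 5p strands. Rows were listed for both arms of miR-421 and miR-545, and 0 rows for miR-374c. miR-421-3p, the product of the precursor next to miR-374b, had 42 reads in Diannan Small Ear and 6 in Tibetan, against 29 in Landrace and 2 in Yorkshire. It was thus high where miR-374b-5p was low, 4.13-fold higher in Diannan Small Ear than in Tibetan (1.75 to 11.9) and 4.82-fold higher in Landrace than in Yorkshire (1.22 to 41.6). Of all miRNAs with reads in both libraries, 27.3% and 32.3% were likewise at least 2-fold higher. By size the miR-421-3p changes ranked 71 of 194 and 68 of 192. With total counts the miR-421-3p ratios were 5.59 and 30.9, where 37.6% and 73.4% of all miRNAs were at least 2-fold higher. Between the types the miR-421-3p log2 fold change was 0.41 ± 1.14 (SE, edgeR adjusted p = 0.996).

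miR-545-3p, from the precursor next to miR-374a, had 11 reads in Diannan Small Ear and 6 in Tibetan, against 9 in Landrace and 3 in Yorkshire. TMM scaling placed these at 1.83 and 1.70 CPM against 1.62 and 1.63 CPM, a span of 1.13-fold. On total-count CPM they were 2.44 and 1.67 against 3.59 and 0.561, a span of 6.40-fold, so the flat profile depends on the scaling. miR-545-5p had 8 and 0 reads in the indigenous libraries, against 9 and 0 in the introduced libraries. miR-421-5p had 1 read in Diannan Small Ear and 0 in the other 3 libraries. Only miR-421-3p of these 4 passed the low-count filter.

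Each strand had nearer profiles elsewhere in the table than that of the other strand of its hairpin. The miR-374a rows were chosen because their strand ratio turned round between these libraries, which by itself sets the profiles of its strands apart. For miR-374a the distance between strands is therefore a description and no separate finding. Likeness was measured as the root mean square distance between mean-centred log2 CPM profiles (TMM scaling, prior count 2) over the 4 libraries. The nearest profiles to miR-374a-5p were miR-3613 at 0.51, the skeletal muscle miRNA miR-206 at 0.57, miR-499-3p at 0.93, miR-152 at 0.98 and miR-20a at 1.15, against a median of 3.38 over the other 196 tested miRNAs. In Diannan Small Ear and Landrace miR-499-3p had 0 reads each, so its distance rests on the prior count, and miR-3613 had only 13 and 7. miR-374b-5p came 10 in that order at 1.51, and miR-374a-3p came 78 at 3.14. miR-206 had 2661 reads in Diannan Small Ear and 123551 in Tibetan, against 3081 in Landrace and 150661 in Yorkshire, so it shares the high and low libraries with miR-374a-5p.

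Each 3p strand was among the 5 nearest profiles of the other. For miR-374a-3p the closest were miR-628 (distance 0.20), miR-425-3p (0.24), miR-374b-3p (0.24), miR-30c-3p (0.26) and miR-361-5p (0.32). For miR-374b-3p they were miR-340 (0.22), miR-345-5p (0.24), miR-374a-3p (0.24), miR-425-3p (0.28) and miR-361-5p (0.29). miR-374b-5p was nearest to miR-450a (0.17), miR-140-5p (0.22), miR-133a-5p (0.23), miR-450c-5p (0.24) and miR-21 (0.25), with miR-374a-5p at place 61. Median distances were 0.98, 1.08 and 1.92 for miR-374a-3p, miR-374b-3p and miR-374b-5p.

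Markers of other cell types were summed beside these values. White blood cell markers, with 3 of 4 miRNAs listed, took between 0.00303% (Yorkshire) and 0.0119% (Landrace) of reads, and the erythroid miR-451 and miR-144 between 0.00473% (Yorkshire) and 0.0364% (Tibetan). The endothelial miR-126 arms ranged from 0.0626% (Yorkshire) to 0.643% (Landrace) and the 5 stromal and smooth muscle miRNAs from 0.313% (Yorkshire) to 3.03% (Landrace). These are total-count shares, and TMM scaling changed the order. TMM-scaled sums of white blood cell markers ran from 53.9 (Landrace) to 97.0 CPM (Tibetan), with 88.0 in Yorkshire. Erythroid sums ran from 67.4 (Diannan Small Ear) to 370 CPM (Tibetan). Endothelial sums ran from 1817 (Yorkshire) to 3011 CPM (Tibetan), and stromal sums from 9092 (Yorkshire) to 16987 CPM (Tibetan). The liver miRNAs, with 2 of 3 listed, were low where miR-374a-5p was high, at 0.0668% in Diannan Small Ear and 0.000974% in Tibetan, against 0.0954% in Landrace and 0.000411% in Yorkshire. No row of these lists was at 0 in any library. Their part in the miR-374 values was not tested.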

How the data were processed

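The authors deposited whole-number read counts per known miRNA and library, per the file headers, for libraries made with a Balancer small RNA kit, per the labels. The deposited CPM values equalled each count over its column total to within 4.2e-05. The deposited mean signal per type and the authors' fold, p-value and FDR columns were used only as quoted. The aligner, miRNA database and build were not given in the sources used here, and no coordinates or sequences are printed.

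Members and lists were chosen with earlier results of these data known. Types were compared on the whole table with edgeR 4.0.16 (R 4.3.3; glmQLFit, glmQLFTest, filterByExpr, TMM, Benjamini-Hochberg), 2 libraries against 2, tested on simulated data. The check on simulated data required changes to be recovered only at a spread far below that of these libraries. Standard errors are the log2 fold change over the square root of F. Single libraries were compared without a test, with 95% exact intervals (scipy 1.17.1) for counting error. Named miRNAs were all miR-374, miR-421 and miR-545 rows, the 5 nearest profiles of each member and the precursors whose leading arm differed. Alternatives were total-count, RLE and upper-quartile scaling, no filter, DESeq2 1.42.0, leaving out each library, 0.5 added to each arm, other read minimums and, chosen after the data were seen, summing the paralogs.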

Additional observations from a re-analysis of the deposited data

How the results depend on the processing

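The comparison of types called 0 miRNAs under every alternative run, those with a library left out included. The log2 fold change of miR-374a-5p ranged from -5.80 (without Tibetan) to 5.95 (without Yorkshire), with -0.52 without Landrace, that of miR-374b-5p from -3.31 to 2.90, with -0.60 without Landrace, that of miR-374b-3p from -1.51 to 0.018 (without Yorkshire), and that of miR-374a-3p from -1.01 to -0.34. Leaving out a library sets 1 against 2, and the lone library is assumed to vary like the others. Total-count scaling moved the number of miRNAs at least 2-fold different from 17 to 64 for Diannan Small Ear over Landrace and from 47 to 155 for Tibetan over Yorkshire, and turned the log2 ratio of miR-374b-3p for Landrace over Yorkshire to 1.09. No arm ratio left its counting interval with 0.5 added to each arm or with the paralogs summed. For miR-374a neither change could move the ratio far, because its reads far outnumber both the added 0.5 and the miR-374b reads. The number of precursors whose leading arm differed was 6 with at least 5 reads over both arms in every library and 3 with at least 100 reads. Depth limits miR-374b-3p, at 8 to 11 reads a library. No paired analysis was possible because each breed had 1 library and the labels link no indigenous library to an introduced library.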
